A study of Mus musculus with 8 samples.

Results

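The AP-1 and early growth response genes examined here are Fos, Fosb, Fosl2, Jun, Junb, Jund, Atf3, Egr1, Egr2 and Maff, 10 genes out of 28786 different gene names on the array. They were chosen by the gene name in the scanner files, with Jund under its older symbol Jund1, and are covered by 12 of 41174 probes: Fosl2 and Junb have 2 probes each and the others 1. The samples were Ly-6C-high monocytes of healthy, untreated female C57BL/6 mice aged 8 to 12 weeks on a chow diet, 4 samples from the spleen and 4 from the blood, numbered 1 to 4 in each tissue. The sort kept cells high for CD11b and Ly-6C, with low staining for lymphocyte, NK cell and granulocyte antigens (Ly-6G, NK1.1, CD49b, B220, CD90) and for the differentiation antigens CD11c, I-Ab and F4/80, and 1000 such cells per mouse and tissue went into a sample. No gene was altered and no agent was given in either group, so tissue is the only labelled difference. Nothing in the labels gives the time between tissue removal and lysis or how cells were released from the spleen.

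AP-1 is a family of dimers of basic leucine zipper proteins. Fos proteins (Fos, Fosb, Fosl2) cannot pair with themselves and bind DNA with a Jun partner (Jun, Junb, Jund), while Atf3 and the small Maf protein Maff are relatives that can pair within the wider family and often repress. Egr1 and Egr2 are zinc finger factors, and in mouse haematopoiesis they are known for favouring macrophage over neutrophil differentiation. Most of these genes are immediate-early genes: their transcripts appear within minutes of a signal and decay fast, so that growth factors, adhesion, inflammatory stimuli and also the dissociation and sorting of tissue are known to induce them.

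All levels are log2 values of the authors' deposited value table, and differences are spleen minus blood on that scale. The table was used because 3 scanner files, those deposited for blood 1, 2 and 3, and the columns so named come from different arrays: file and column had rank correlations of 0.8418 to 0.8724, against 1.0 in the other 5 arrays. A level of 6.8 marks the background. Of the 10 genes 9 could be tested, and Jund could not, as the table has 1 spleen value for it. Over the 18266 tested genes limma's test called 0 at an adjusted p under 0.05 (0.0% called), so none of the 9 passed. With no adjustment, 992 genes (5.43%) had a p under 0.05, 564 of them with a higher spleen mean (3.09%) and 428 with a lower one (2.34%). The same 4 mice gave both tissues, but no label says which spleen and blood samples share a mouse, so they were compared unpaired. The sorted cells carried transcripts of Ly-6C-high monocytes: Ly6c1, Ccr2, Itgam and Csf1r each had a probe at or above background on all 8 arrays. So did Adgre1, which encodes a differentiation antigen that the sort kept low and so does not define these cells. Of the 6 tested monocyte markers, 3 had higher and 3 lower spleen means. Only Ccr2 was without overlap, at 13.43 to 13.87 in 3 spleen samples, against 13.89 to 14.47 in blood. All 6 NK cell markers were at or above background on at most 2 of 8 arrays, Gzma on 0.

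Within the family the means differed in both directions, and no difference passed the adjusted test. The spleen mean was higher than the blood mean for Fosb, Jun, Fos, Egr2 and Maff and lower for Atf3, Egr1, Fosl2 and Junb, that is 5 up and 4 down. Their median difference was 0.14, beside a median of -0.01 and 48.76% higher over all tested genes. Unadjusted p was under 0.05 for 2 members with higher spleen means, Fosb and Jun, and for 1 with a lower spleen mean, Egr1. In none of the 9 did the spleen values lie entirely above the blood values (1.88% of all tested genes) or entirely below them (1.41%). The members are too few to read a share against these backgrounds.

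**Figure D1:**
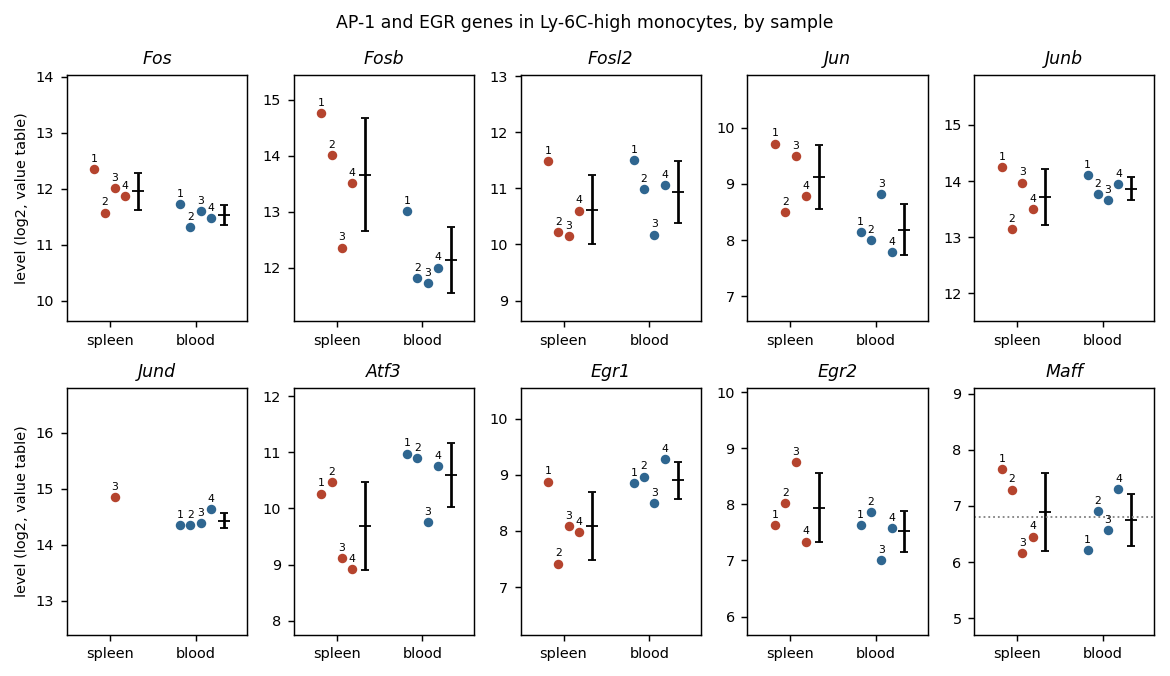
Level of each gene (log2, value table) in spleen samples (red, left) and blood samples (blue, right), with the sample number beside each point and the mean ± SD in black. Every panel spans the same height, and Jund has 1 spleen value; the dotted line in the Maff panel is the background level, 6.8.

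Among the Fos proteins, Fosb had the largest difference of the 9 tested members. Fosb, which exists as a full-length activator and a shorter splice form that the array probe may not separate, had levels of 14.76, 14.02, 12.36 and 13.51 in spleen 1 to 4, against 13.02, 11.82, 11.74 and 12.01 in blood 1 to 4. The 3 spleen samples other than spleen 3 lay above every blood sample, and spleen 3 lay below blood 1. The mean was 13.66 ± 1.01 in spleen and 12.15 ± 0.59 in blood (SD, n = 4 each), a difference of 1.52 ± 0.50 (SE) with a 95% interval of 0.40 to 2.63. It corresponds to 2.86-fold, with an unadjusted p of 0.0129 and an adjusted p of 0.729 in limma's test, and adjusted p ranged from 0.383 to 1 over all settings tried. Its probe lies on chromosome 7 from 16985502 to 16985561 on mm7, minus strand.

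Fos, the founding member of the family, also had a higher spleen mean, by a smaller difference that did not pass the test. Its levels were 12.36, 11.58, 12.01 and 11.87 in spleen 1 to 4, against 11.73, 11.31, 11.61 and 11.48 in blood 1 to 4. The 3 spleen samples other than spleen 2 exceeded every blood sample, and spleen 2 was below blood 1 and blood 3. The difference was 0.42 ± 0.23 (SE), with an interval of -0.09 to 0.93 (limma adjusted p = 0.972). Fos varied little within tissues, with an SD of 0.26 that only 17.8% of tested genes matched or undercut, whereas the within-tissue SD of Fosb, 0.83, was at the 89.3rd percentile.

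Fosl2, which encodes Fra-2, a Fos protein without the strong activation domain of Fos, showed lower spleen means at both of its probes. The brighter probe read 11.49, 10.22, 10.15 and 10.60 in spleen 1 to 4, against 11.50, 10.99, 10.17 and 11.05 in blood 1 to 4. Both tissues covered nearly the same span, and the difference was -0.31 ± 0.37 (SE, limma adjusted p = 1.0). Leaving out 1 sample moved it to between -0.60 (without spleen 1) and -0.12 (without blood 1), with -0.56 without blood 3, -0.16 without spleen 3 and -0.18 without spleen 2. The other probe, 4476 bases further along chromosome 5 on mm7, read 9.87, 8.99, 9.70 and 8.77 in spleen 1 to 4, against 10.16, 9.88, 9.92 and 9.64 in blood 1 to 4. There, spleen 2 and spleen 4 lay below every blood sample, and with each probe tested on its own the difference was -0.57 ± 0.29 (SE, limma adjusted p = 0.945). The probes thus had the same sign but differed in how far the tissues overlapped.

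Of the tested Jun genes, Jun and Junb, only Jun had an interval that lay above 0. Jun, the strongest activator of the trio, read 9.72, 8.50, 9.498 and 8.79 in spleen 1 to 4, against 8.14, 8.00, 8.82 and 7.78 in blood 1 to 4. Spleen 1 and spleen 3 exceeded every blood sample, while spleen 2 and spleen 4 were below blood 3 and above the other 3 blood samples. The mean was 9.13 ± 0.57 in spleen and 8.19 ± 0.45 in blood (SD, n = 4 each). The difference was 0.94 ± 0.34 (SE), or 1.92-fold, with an interval of 0.18 to 1.70, an unadjusted p of 0.0205 and an adjusted p of 0.756 in limma's test. Its probe lies on chromosome 4 from 94441779 to 94441838 on mm7, minus strand.

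Junb, which can restrain Jun and is abundant in myeloid cells, did not separate the tissues. Its tested probe read 14.25, 13.14, 13.97 and 13.49 in spleen 1 to 4, against 14.11, 13.76, 13.65 and 13.94 in blood 1 to 4. The spleen values spread on both sides of the blood values, and the difference was -0.15 ± 0.27 (SE), with an interval of -0.76 to 0.46 that lay within 2-fold in either direction. Leaving out 1 sample gave between -0.33 (without spleen 1) and 0.04 (without spleen 2). The second probe, which reads brighter, had values of 17.17, 16.65, 16.39 and 16.65 in spleen 1 to 4, against 16.48 and 16.75 in blood 3 and blood 4, and was not tested because the table is empty for blood 1 and blood 2. Over these values its mean difference was 0.10, of the opposite sign to the tested probe, and spleen 3 was its lowest sample. The spleen mean, 16.71, lay below blood 4, so the opposite sign rests on blood 3. On the scaled signal of the scanner files that match the table, spleen 3 was instead its highest sample, at 8.09. Spleen 1, spleen 2 and spleen 4 read 7.20 to 7.74 there, below blood 4 at 7.90. The order of its spleen samples thus depends on the signal used. The probes overlap by 22 bases on chromosome 8 (83563097 to 83563118 on mm7, minus strand), so they report the same end of the transcript. The shared bases are in capitals, with 4 bases of either probe beside them, to show that the Junb readings are not independent.
Junb: gcacTTCGTGTCTAAAGTCTATTTTAagat

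Jund, the Jun protein that most cells hold at rest, was measured in all 4 blood samples, at 14.35, 14.35, 14.38 and 14.64, and in spleen 3 alone of the spleen samples, at 14.85. The empty spleen cells belong to arrays whose scanner files match the table, so they could be filled from those files through each array's own order of signals, a step added after the data were seen. Filled in this way, Jund was 15.56 in spleen 1, 15.31 in spleen 2 and 15.29 in spleen 4. All 4 spleen values, 3 of them filled, then lay above the 4 blood values, with a difference of 0.82 and a limma adjusted p of 0.583. The 3 spots had been left empty by the authors, and their filled values rest on the scanner's median signal alone. Fitted on the scanner files, with their other arrays for 3 blood samples, the difference was 0.07.

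**Figure D2:**
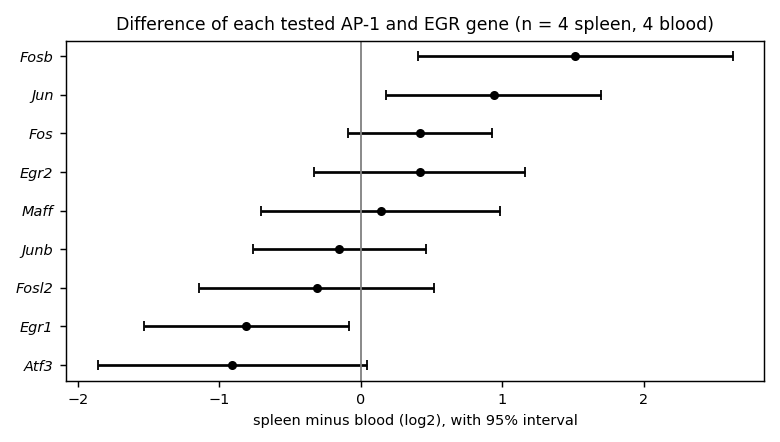
Spleen minus blood difference (log2) of the 9 tested genes, with the 95% interval from limma, 4 samples per tissue. The intervals of Fosb and Jun lie above 0 and that of Egr1 below 0; the other 6 include 0.

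Among the relatives that often repress, Atf3 had a lower spleen mean and Maff lay near background. Atf3, a stress-induced factor known for damping inflammatory genes in mouse macrophages, read 10.26, 10.47, 9.11 and 8.92 in spleen 1 to 4, against 10.98, 10.90, 9.76 and 10.76 in blood 1 to 4. Spleen 3 and spleen 4 lay below every blood sample, whereas spleen 1 and spleen 2 were above blood 3 only. The mean was 9.69 ± 0.79 in spleen and 10.60 ± 0.57 in blood (SD, n = 4 each), a difference of -0.91 ± 0.42 (SE). Its interval was -1.86 to 0.04, with an unadjusted p of 0.0593 and an adjusted p of 0.941 in limma's test.

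Maff, a small Maf protein without an activation domain, read 7.65, 7.29, 6.16 and 6.45 in spleen 1 to 4, against 6.21, 6.91, 6.57 and 7.30 in blood 1 to 4. Each tissue had 2 samples above the background level and 2 below it, and the difference was 0.14 ± 0.38 (SE), or -0.11 without spleen 1 and 0.39 without spleen 3. The table narrows differences this close to background, and as Maff is the middle of the 9 members the median difference is its value.

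Egr1 and Egr2, the zinc finger pair, had means that differed in opposite directions. Egr1 read 8.88, 7.42, 8.08 and 7.98 in spleen 1 to 4, against 8.85, 8.97, 8.50 and 9.28 in blood 1 to 4. The 3 spleen samples other than spleen 1 lay below every blood sample, and spleen 1 lay between blood 1 and blood 2. The mean was 8.09 ± 0.60 in spleen and 8.90 ± 0.32 in blood (SD, n = 4 each). The difference was -0.81 ± 0.32 (SE), with an interval of -1.53 to -0.09, an unadjusted p of 0.0318 and an adjusted p of 0.826 in limma's test. The Egr1 probe lies on chromosome 18 from 35240842 to 35240901 on mm7, plus strand.

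Egr2 read 7.63, 8.03, 8.75 and 7.33 in spleen 1 to 4, against 7.64, 7.86, 6.9998 and 7.58 in blood 1 to 4. Spleen 2 and spleen 3 exceeded every blood sample, and spleen 4 was lower than all but blood 3. The difference was 0.42 ± 0.33 (SE), with an interval of -0.33 to 1.16 (limma adjusted p = 1.0). It was 0.14 without spleen 3 and 0.24 without blood 3. Of their relatives and partners, Egr3 differed by -0.44, and the corepressors Nab2 and Nab1, which bind Egr proteins, by 0.34 and -0.05. Egr4 and Wt1, the other members of that list, were too dim to test, and 0 of the 3 tested passed at an unadjusted p under 0.05.

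Sample by sample, spleen 1 stood highest for the members. It had the highest level of all 8 samples for 5 of 9 members (Fos, Fosb, Jun, Junb and Maff) and the highest of the 4 spleen samples for 7 of 9, all but Atf3 and Egr2. Blood 1 had the highest level of the 4 blood samples for 5 of 9 members, and blood 3 the lowest for 6 of 9. How often these samples hold such ranks over all tested genes is not given, so the counts are not particular to the members. Without spleen 1 the difference of Fosb was 1.15, that of Jun 0.74 and that of Fos 0.29, while Egr1 stood at -1.07. The median difference of the members was -0.11 without spleen 1 and -0.04 without blood 1. The 1 pair of arrays known to share a slide, spleen 4 and blood 4, differed by 1.50 for Fosb, 1.01 for Jun, 0.39 for Fos, -1.84 for Atf3 and -1.30 for Egr1.

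Several signs differed between the value table and the scanner files. In 3 of the scanner files the array differs from the table's column of that sample, and all of them were read with another signal and scaling. The parts of arrays and of processing in these signs were not tested. Scaled to the 75th percentile, the scanner files gave -0.04 for Jun, 0.45 for Atf3, 0.67 for Fosl2, 0.17 for Junb and -0.57 for Maff. Each had the opposite sign to the table. Fosb was 0.84, Fos 1.43 and Egr1 -3.05 there, with the sign of the table and another size. With the table's 5 arrays that match their scanner files, 4 spleen and 1 blood, Jun, Atf3, Fosl2 and Junb had the sign of the full table. Maff, at -0.41, did not. These 5 columns are also part of the full table, so agreement in sign with it is partly built in. Which deposit holds the labelled blood samples was not tested.

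**Figure D3:**
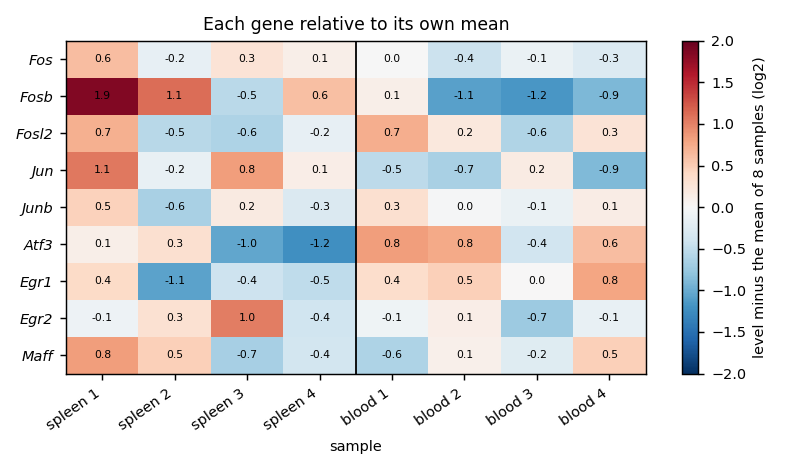
Level of each tested gene in each sample minus that gene's mean over the 8 samples (log2), spleen samples left of the line and blood samples right of it. Spleen 1 is the highest of the 8 for Fos, Fosb, Jun, Junb and Maff, and no member divides the tissues without overlap.

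The genes most like the members in profile, taken as the mean of the 9 members after centring and scaling each over the 8 arrays, were Arhgap20 (Pearson correlation 0.976), 1810057P16Rik (0.965), Celsr1 (0.963), Gabrp (0.959) and Scn8a (0.959). These are the highest values picked out of all tested genes outside the lists, over 8 arrays from 4 mice, and are a description. In all 5 the highest sample was spleen 1: Arhgap20 read 8.20, 7.01, 7.31 and 7.12 in spleen 1 to 4, against 7.43, 7.12, 6.84 and 7.47 in blood 1 to 4. All 5 reach down to near the background level of 6.8. Their lowest values were 6.84, 6.53, 6.79, 6.98 and 6.68, in the order named.

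The other basic leucine zipper genes were spread around 0. Of 20 listed, 19 were tested, 8 with higher and 11 with lower spleen means and a median of -0.11. Of these 0 had an unadjusted p under 0.05, where the share over all genes was 5.43%. The 3 with the smallest p were Atf4, the main transcription factor of the integrated stress response, at 0.51 ± 0.27 (SE), Bach2, a repressor best known from lymphocytes, at -0.995 ± 0.55, and Mafg, a small Maf protein, at -0.59 ± 0.33 with 3 blood values. The only untested gene, Fosl1, was too dim.

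The factors and kinases that switch immediate-early genes on showed no tested member with an unadjusted p under 0.05. Of 16 listed (Srf, its Elk and Mkl partners, and MAP kinases and their upstream kinases) 15 were tested, 9 with higher and 6 with lower spleen means, with a median of 0.04, and for 12 of them the 95% interval lay within 2-fold. Over all tested genes 10065 of 18266 had such an interval. Mapk3, which encodes the kinase ERK1, differed by -0.55 ± 0.36 (SE), Map2k2, which encodes MEK2, by -0.37 ± 0.33, and Mkl1, a coactivator of Srf, by 0.32 ± 0.29. Srf itself differed by 0.03 ± 0.29.

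Since handling of tissue is known to induce immediate-early and heat shock genes, those lists were set beside the members. Of 32 other immediate-early genes 31 were on the array and 22 were tested, 12 with higher and 10 with lower spleen means and a median of 0.07. Of the 9 not tested, 7 were too dim and 2, Klf4 and Dusp1, had empty cells. With an unadjusted p under 0.05 there were 2 of 22 with higher spleen means (3.09% over all genes) and 1 with a lower one (2.34%), and in 2 all spleen values lay above all blood values (1.88%). Dusp2, a nuclear phosphatase that switches off MAP kinases, read 12.61, 12.37, 12.54 and 12.18 in spleen 1 to 4, against 12.15, 11.61, 11.60 and 11.26 in blood 1 to 4, with all spleen samples above all blood samples. Its difference was 0.77 ± 0.24 (SE, limma adjusted p = 0.691). Tnfaip3, which encodes the NF-kB inhibitor A20, was likewise without overlap, at 11.15, 10.79, 11.49 and 11.30 in spleen 1 to 4, against 9.47, 10.43, 10.77 and 10.49 in blood 1 to 4, and differed by 0.89 ± 0.31 (SE, limma adjusted p = 0.74). Gadd45b, a stress sensor that acts on MAP kinase cascades, differed the other way, by -1.01 ± 0.32 (SE, limma adjusted p = 0.704).

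Heat shock genes differed little in mean between the tissues. All 12 on the array were tested, 7 with higher and 5 with lower spleen means, with a median of 0.06, and 10 had an interval within 2-fold, as did 10065 of all 18266 genes. An unadjusted p under 0.05 was found in 0 of 12 (5.43% over all genes), and 1, Hsp90aa1, had all spleen values above all blood values (1.88%). Hsp90aa1, the inducible cytosolic HSP90, read 12.34 to 12.56 in spleen, against 11.89 to 12.28 in blood, without overlap, and differed by 0.36 ± 0.19 (SE, limma adjusted p = 0.968). The mitochondrial cochaperone Hspe1 differed by 0.34 ± 0.21 and Hsph1, which encodes HSP105, by 0.38 ± 0.32. Hspa1a, an inducible HSP70 gene, read 10.33, 9.17, 9.81 and 7.07 in spleen 1 to 4, against 9.30, 9.06, 9.67 and 8.43 in blood 1 to 4, so it varied more among spleen samples than between tissues and is named here after its values were seen. The list's median by sample was 11.85 to 12.23 in spleen and 11.61 to 12.05 in blood, and spleen 1, at 11.94, lay inside the range of the other spleen samples. The part of handling in the members' differences was not tested.

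**Figure D4:**
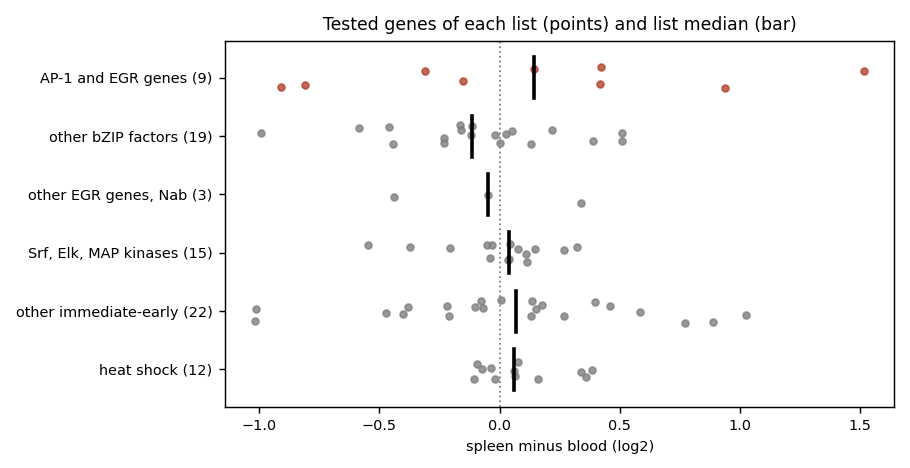
Spleen minus blood difference (log2) of every tested gene in the 6 lists drawn (AP-1 and EGR genes, other bZIP factors, other EGR genes with Nab1 and Nab2, serum response regulators, other immediate-early genes and heat shock genes), with the number tested in brackets and the list median as a bar; the AP-1 and EGR genes are in red. The medians of these 6 lists run from -0.11 to 0.14, and Fosb, at 1.52, lies farthest from 0 of the points drawn; cell type marker lists are not drawn.

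Some markers of other cells that the sort could hold also differed in mean between the tissues, though none passed the adjusted test. In bulk samples, more cells of a type and more RNA per cell cannot be told apart. Of 10 neutrophil markers 8 were tested and all 8 had higher spleen means, from 0.03 for Csf3r to 5.57 for S100a8. In 6 of them all spleen values lay above all blood values (1.88% over all genes). The log2 of the summed signal of the 8 was 15.32 to 16.77 in spleen samples, against 10.22 to 12.15 in blood samples. Of 7 platelet markers all were tested and all 7 had lower spleen means, from -0.06 for Gp1bb to -2.66 for Pf4. In 2 of them all spleen values lay below all blood values (1.41% over all genes). The summed signal over the 6 complete ones was 10.35 to 11.11 in spleen samples, against 11.59 to 12.88 in blood samples. Blood 1 differed from the other blood samples: its Pf4, Ppbp and Gp9 read 6.39, 6.71 and 6.17, below the background level of 6.8. Its median over the platelet list, 7.78, lay below those of all spleen samples, 8.09 to 8.44. Of 10 dendritic cell and macrophage markers 9 were tested, 8 with higher spleen means, with sums of 13.80 to 15.13 in spleen samples and 13.88 to 14.26 in blood samples. Of 7 T cell markers 4 were tested, all with higher spleen means, with sums of 10.08 to 11.44 in spleen and 9.99 to 10.31 in blood. The 3 complete ones of 6 B cell markers summed to 8.98 to 9.73 in spleen and 8.83 to 9.49 in blood. Of 6 erythroid markers 4 were tested, 1 with a higher and 3 with lower spleen means, with sums of 9.70 to 13.11 in spleen and 11.34 to 12.65 in blood. Their part in the members' differences was not tested.

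The bases just before the transcription start are shown for Fosb, Jun and Atf3, which had the largest differences among members whose sequence is shown here, and for Fos. Sites for AP-1 and for the related ATF and CREB factors near the start are among the ways these genes are known to respond to signals and to each other. Sites for Srf were not searched. The 100 bases before the RefSeq start were searched on both strands for TGACG (one side of the cyclic AMP response element), TGACGTCA (that element whole, which contains TGACG on both strands), TGACATCA (the variant known from the Jun promoter), TGACTCA (the AP-1 element) and GCGNGGGCG (an EGR site), with capitals marking every match.
Fosb, chr7:19310046-19310145, minus strand: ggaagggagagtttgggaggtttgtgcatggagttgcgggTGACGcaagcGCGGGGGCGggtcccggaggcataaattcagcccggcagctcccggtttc
Fos, chr12:85473790-85473889, plus strand: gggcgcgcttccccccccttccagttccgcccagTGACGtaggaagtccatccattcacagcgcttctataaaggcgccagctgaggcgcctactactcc
Jun, chr4:95052223-95052322, minus strand: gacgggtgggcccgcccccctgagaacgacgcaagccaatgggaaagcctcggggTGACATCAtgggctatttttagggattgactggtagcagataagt
Atf3, chr1:191183334-191183433, minus strand: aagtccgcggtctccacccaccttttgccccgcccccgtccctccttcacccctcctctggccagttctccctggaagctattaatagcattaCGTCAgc

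These windows are on GRCm38.p6 and come from RefSeq's starts. Fosb holds TGACG and, 10 bases on, an EGR site, Fos holds TGACG, Jun holds TGACATCA, and Atf3 holds TGACG on the opposite strand, where it reads CGTCA. Of the 9 members searched, which leaves out Egr1, 5 hold TGACG in at least 1 listed start (Atf3, Egr2, Fos, Fosb and Maff), where 10.5% of all 32851 listed starts do. TGACATCA is in 2 of 9 (1.96% of all starts), GCGNGGGCG in 3 of 9 (3.02%), TGACGTCA in 1 of 9 (1.15%) and TGACTCA in 0 of 9 (1.88%). Egr2 and Maff have several listed starts, which raises their chance of a match. Of the 5 members with TGACG, 4 (Fosb, Fos, Egr2 and Maff) had higher and 1 (Atf3) a lower spleen mean. Over all tested genes 48.76% had higher spleen means. Without TGACG, Jun had a higher and Fosl2 and Junb lower spleen means, and Egr1, which was not searched, also had a lower one. None of these differences passed the adjusted test, and the members are too few to read a share.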

How the data were processed

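RNA of Ly-6C-high monocytes from spleen (4 samples) and blood (4 samples) was hybridized to 1-colour Agilent arrays. Spot intensity values were extracted with Agilent Feature Extraction 9.5.1.1, which subtracted a fitted spatial surface and did not scale arrays to each other, per the file headers. The authors' deposited value table holds log2 values, made with limma (no version stated) per the submitters' processing notes. Its columns have near-equal distributions and, in 5 arrays, the order of the scanner's median signals, so it was read as quantile-normalized without background subtraction, which narrows differences of dim probes.

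The members and the gene lists were chosen with earlier results of these data known. Probes were kept when they reached 6.8, the level above which at least 95% of probes in each step of 0.1 were well above background in the 5 matching arrays, on at least 4 of 8 arrays, with at least 3 values per tissue. The brightest kept probe stood for each gene, 18266 in all. Spleen minus blood was tested with lmFit and eBayes (limma 3.58.1, R 4.3.3, checked on simulated data), with Benjamini-Hochberg adjustment over all of them and a threshold of 0.05. Intervals are 95% intervals of that fit. Every member is named. Of each companion list the 3 tested genes with the smallest p are named, and also the 5 other genes whose profile over the 8 arrays is most like the members' mean. Same-numbered spleen and blood samples correlated in their deviations by 0.09 to 0.141. As no label gives the pairs, the samples were compared unpaired. Alternatives were a replicate block, no dim filter, the mean of probes, the scanner files under 2 normalizations, the matching arrays alone, the slide, filled empty cells, each probe alone and each sample left out. The number of arrays limits the precision. One monocyte marker is not reported here. No exon annotation of the array's build, mm7, was used here.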

Additional observations from a re-analysis of the deposited data

Results flagged for a closer look

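Of the groups of 4 values tested among the members, the Jund value of blood 4, 14.64, stood apart from the other 3 blood samples at 14.35 to 14.38. Its gap to the nearest sample was 0.867 of the group's range. Chance alone singles out about 1 in 20 such groups, and 22 were examined.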

How the results depend on the processing

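No member passed the adjusted threshold in any setting. The count over all genes, 0, became 13 under a random replicate block, 1 under a fixed one, 7 with the mean over probes, 8 with filled empty cells, 4 from the scanner files at the 75th percentile, 6 from those files with normexp, 1 with the slide as a block on them, and 0 to 3 without 1 sample. The replicate block changed no member's call. The numbers were not taken as pairs: each spleen sample's deviations correlated best with the blood sample of its own number (0.09 to 0.141), a hint from the data. Fosb, Fos and Egr1 kept their sign in every setting run. Every setting shares arrays with the main fit, so this is partly built in. The members' median was -0.22 with the 5 matching arrays, -0.44 within the shared slide and -0.11 to 0.33 without 1 sample. The 3 mismatched blood files enter every setting with all scanner files. There, with the 75th percentile, normexp and the slide block in turn, Fosl2 was 0.67, 0.57 and 0.87, Junb 0.17, 0.16 and 0.24, and Maff -0.57, -0.37 and -0.61. Jun was -0.0366 and -0.0509, and Atf3 0.45 and 0.34, in the first and second of these. Maff was also -0.41 with the matching arrays and -0.84 within the slide, where Egr2 was -0.25. Without 1 sample Maff ranged from -0.11 to 0.39 and Junb from -0.33 to 0.0392. The causes were not tested, but those settings use other arrays with another signal and scaling, or fewer samples.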

Other observations

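The scanner files deposited for blood 1, 2 and 3 do not match the table's columns of those samples. They were not compared with its other columns. In them, 11 of the 12 member probes overlapped the range of the 5 matching arrays. The share over all probes is not given, so this count only describes the members. Of the matching arrays 4 are spleen and 1 is blood, so file and tissue cannot be told apart here. On the scale of these files, log2 of the processed signal minus each array's 75th percentile, Egr1 read 4.13, 2.52 and 0.07 in the files of blood 1, blood 2 and blood 3, and -2.27 to 0.20 in the 5 matching arrays. Fos read 2.63, 1.93 and -0.58 in these 3 files and 2.43 to 3.46 in the matching arrays. The exception was the second Fosl2 probe, which read -1.67 to -0.83 in them, below its range of -0.3205 to 1.0035 in the matching arrays. Jund read 6.61, 6.36, 6.28 and 6.22 in spleen 1 to 4 on this scale and 5.77 in blood 4, the only matching blood array.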
